A study of Mus musculus with 6 samples.

Results

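The mouse genes named Zfp with a number encode zinc finger proteins, and they were followed here across all 6 arrays of a study of mIMCD3 cells, a cell line from the inner medullary collecting duct of the mouse kidney. A probe set was taken if its annotation gave a single gene symbol that began with Zfp and a digit. The rule itself used no measured value, although the set was chosen with earlier results of these data known. It gave 116 of 12422 probe sets, which stand for 89 of 8251 genes. Of the Zfp genes, 67 had 1 probe set and 22 had several. A further 2 probe sets that carried several symbols, a Zfp name first, were left out. RNA came from cells kept for 1 h with aldosterone (3 arrays) or for 1 h with vehicle (3 arrays). There were 3 replications of the experiment, with an array of each treatment in every one. The labels used here name the cells, the treatment and its length, and give no hormone dose, vehicle or medium. They do not say that cultures were separate, so the p-values describe how far these 6 samples scatter, which may be technical.

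Most numbered Zfp proteins carry tandem C2H2 fingers, in which a zinc ion held by cysteines and histidines shapes a loop that reads DNA. Many join the fingers to a KRAB domain that recruits the corepressor Trim28 and silences nearby chromatin, and such genes lie in clusters formed by repeated duplication. A small group is different: Zfp36 (tristetraprolin), Zfp36l1 and Zfp36l2 have CCCH fingers, bind AU-rich elements of mRNAs and bring the deadenylase that starts their decay. Aldosterone acts through the mineralocorticoid receptor and, at high levels, the glucocorticoid receptor, which bind DNA with zinc fingers of another class. The comparison asked which transcripts respond within an hour of the hormone.

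The deposited intensities were on a shared scale on 5 arrays and far lower on the third replication's aldosterone array. The values were multiplied by 24.2 on that array, against 0.838 to 0.840 for the others. After scaling, the array medians lay between 747 and 843. Of 16 probe sets for markers of collecting duct or renal epithelium, 12 were above the 40th percentile of level used as the limit of testing, among them Krt8, Krt18, Krt19, Cdh16 and Pax8. Below it were Aqp2 and Avpr2, the water channel and vasopressin receptor of principal cells, Gata3, and another probe set of Krt18, at the 6.15th percentile. The same limit was passed by 3 of 14 fibroblast, 3 of 12 leukocyte, 1 of 8 proximal tubule and 0 of 11 endothelial marker probe sets. The brightest of these were Cd14 (leukocyte), at the 87.8th percentile of level, and a probe set of Col1a2 (fibroblast), at the 83.6th. The other probe set of Col1a2 was below the limit.

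The Zfp probe sets ranged from among the dimmest to among the brightest on the arrays. The limit of testing was a log2 level of 8.87, the 40th percentile over all 12422 probe sets. It was passed by 81 Zfp probe sets (69.8%), which belong to 69 genes, against 60% of all probe sets by construction. For the 81, single-array intensities ran from 78.2 to 18415, with a median of 1356.5. The 35 below the limit ran from 8 to 645, with a median of 144.6. The brightness of a probe set depends on its probes as well as on the transcript, so these positions order signals and not mRNA amounts.

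**Figure D1:**
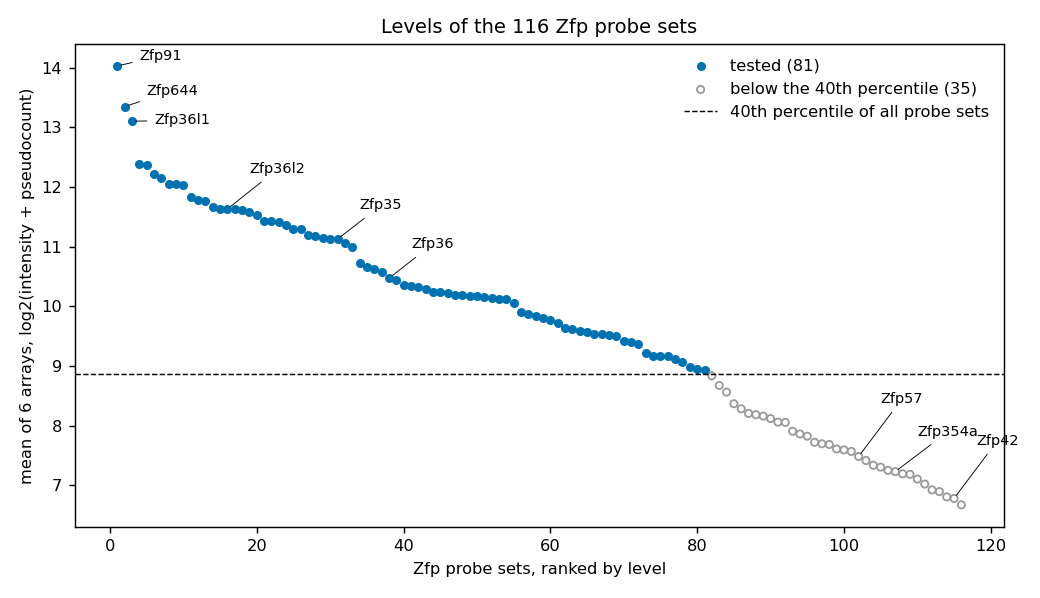
Mean log2(intensity + pseudocount) over the 6 arrays (vertical axis) of the 116 Zfp probe sets in order of level (horizontal axis). Filled points are the 81 above the 40th percentile of all probe sets, at 8.87, and open points the 35 below it; Zfp91, Zfp644 and Zfp36l1 lie above 13.

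Zfp91, a ubiquitin ligase of non-canonical NF-kB signalling, gave the brightest signal, with 16253, 16997 and 17834 on the aldosterone arrays of replications 1, 2 and 3, against 18415, 14930.0 and 15951 on the vehicle arrays. Its groups overlapped, and its within-group SD was 0.119 on the log2 scale. Zfp644 followed with 10742, 8998 and 11343 with aldosterone, against 11058, 9826 and 10499 with vehicle. Next came Zfp36l1, then Zfp207, a spindle assembly protein that carries the checkpoint protein Bub3 to kinetochores, and a probe set of Zfp94. The dimmest of these 5 lay at the 87.2th percentile of all probe sets.

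In the other direction, 20 genes had no probe set above the limit: Zfp2, Zfp14, Zfp28, Zfp37, Zfp40, Zfp42, Zfp46, Zfp57, Zfp59, Zfp60, Zfp92, Zfp93, Zfp239, Zfp354a, Zfp503, Zfp518b, Zfp612, Zfp771, Zfp799 and Zfp865. Zfp42 (Rex1), a marker of pluripotent stem cells, read 79.0, 48.0 and 26.6 with aldosterone, against 51.3, 77.5 and 68.0 with vehicle. Zfp57, which maintains genomic imprints in the embryo, read 102, 146 and 106 with aldosterone, against 65.3, 270.5 and 120 with vehicle. Zfp354a (Kid-1), a KRAB protein first described in kidney, read 43.9, 41.5 and 285 with aldosterone, against 55.6, 68.5 and 224 with vehicle, so that replication 3 was high under both treatments. For these 3 genes the groups overlapped, and values this low were not tested. Of the 35 probe sets below the limit, 1 had groups that did not overlap. Over all tested probe sets, every aldosterone array was below every vehicle array in 2.27% and above in 1.91%. The share over all probe sets below the limit was not counted. The 1 of 35 is named after its values were seen. This probe set of Zfp568 read 101, 111 and 130.5 with aldosterone, against 251, 328 and 239 with vehicle, a log2 difference of -0.96 with no test. The other probe set of Zfp568 was tested and gave -0.12. The limit itself fell among close values: the last below it was a probe set of Zfp277 at 8.83, and the first above it were probe sets of Zfp787 at 8.93 and Zfp398 at 8.95.

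Probe sets of a single gene did not always read alike. For 10 genes some probe sets were above the limit and others below it. Zfp91 and Zfp36l2 each had 1 probe set below the limit beside a pair above it. Where several probe sets of a gene were tested (11 genes), they lay on the same side of 0 after aldosterone in 5. Of the 116, 26 carried a suffix in their name that marks probes chosen under relaxed rules, 13 of them the f that marks similarity to a gene family. Such probes can read related Zfp transcripts, so those values are uncertain as to the gene. Among the genes whose values are given below, Zfp1, Zfp53 and Zfp982 are represented by probe sets with the f, as is the brightest of Zfp787.

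After 1 h of aldosterone no Zfp transcript differed from vehicle at the threshold. In limma's fit on treatment across all 7453 tested probe sets, 0 of the 81 Zfp probe sets had a Benjamini-Hochberg adjusted p under 0.05, where 0% of all tested probe sets did. An unadjusted p under 0.05 was reached by 1 Zfp probe set (1.23%), that of Zfp35, against 0.966% of all. By sign, 46 were higher and 35 lower (55 and 26 with arrays scaled to a common median), with a median log2 difference of 0.06, against -0.0003 over all tested probe sets. Over all tested probe sets, 3721 were higher and 3732 lower. The Zfp quartiles were -0.08 and 0.15, against -0.10 and 0.10 for the other tested probe sets. A change of less than 1.5-fold was seen in 78 of 81 (96.3%), against 97.7% of the others. The Zfp median was 0.05, 0.04 and -0.05 within replications 1, 2 and 3, so it was on either side of 0. It was -0.04 without the vehicle array of replication 2, -0.0009 without the aldosterone array of replication 1 and -0.001 without replication 2.

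**Figure D2:**
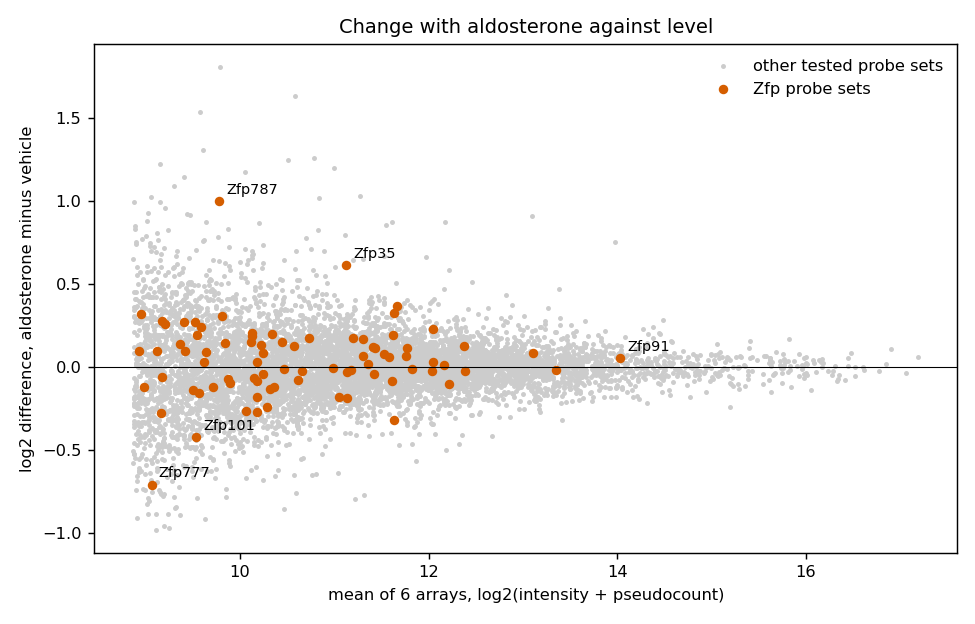
Log2 difference, aldosterone minus vehicle (vertical axis), against mean log2(intensity + pseudocount) of the 6 arrays (horizontal axis) for the 81 Zfp probe sets over the other tested probe sets in grey. Zfp35 lies at 0.61, and a probe set of Zfp787 at 1.00, where 1 vehicle array read 78.2.

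Zfp35, a C2H2 protein gene, had the smallest p of the Zfp set. Its probe set read 2969.8, 2719 and 2466 with aldosterone in replications 1, 2 and 3, against 1534, 1739 and 2020 with vehicle. Every aldosterone array was above every vehicle array, which held for 1 Zfp probe set (1.23%) and for 1.91% of all tested probe sets; the reverse held for 0, against 2.27% of all. The means were 2718 ± 252 with aldosterone and 1764 ± 244 with vehicle (SD, n = 3 each), which is 1.53-fold or 0.61 on the log2 scale (standard error 0.174). The difference was 0.93, 0.63 and 0.28 in the 3 replications, and the adjusted p in limma's fit was 0.9995, and 0.998 with the replication as a block.

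A further 6 probe sets were higher with aldosterone in all 3 replications, which made 7 (8.64%, against 10.5% of all tested), and 8 were lower in all 3 (9.88%, against 11.5% of all). Both shares lay below those of all tested probe sets. Zfp36l2 is described with its family below. A probe set of Zfp1 with the suffix f read 3803, 3220.0 and 3892 with aldosterone, against 3484, 2032 and 3095 with vehicle. Its log2 difference was 0.37 (standard error 0.212). With the replication as a block in limma's fit the standard error was 0.135, the unadjusted p 0.0234 and the adjusted p 0.998. The other probe set of Zfp1 gave 0.12, higher in replication 1 only. A probe set of Zfp574 had 0.31 (standard error 0.269), but the brighter one had -0.18. Zfp94 and Zfp62 had 0.13 and 0.11, with standard errors of 0.222 and 0.266 in limma's fit on treatment alone. With the replication as a block their standard errors were 0.109 and 0.121.

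The lower genes of smallest p were Zfp281, Zfp101, Zfp651, Zfp954, Zfp326 and Zfp982. Zfp281, a factor of GC-rich promoters known from the control of pluripotency, read 3221, 2535 and 2671 with aldosterone, against 3508, 4152 and 2943 with vehicle. The groups overlapped, since the aldosterone array of replication 1 was above the vehicle array of replication 3. Its log2 difference of -0.32 (standard error 0.179) came from -0.12, -0.70 and -0.14 in the replications. Zfp101 had -0.42 (standard error 0.260), at 600 ± 147 with aldosterone and 809 ± 76.8 with vehicle (SD, n = 3 each). Zfp651 had -0.24 and, in its dimmer probe set, -0.07. For Zfp954, Zfp326 and Zfp982 the differences of -0.26, -0.18 and -0.28 had standard errors of 0.272, 0.195 and 0.351. With the replication as a block in limma's fit these were 0.198, 0.139 and 0.289. The block gave standard errors of 0.145 for Zfp281, 0.244 for Zfp101 and 0.181 for the brighter probe set of Zfp651. Zfp281 then had an unadjusted p of 0.0557 and an adjusted p of 0.998. None of these 12 genes passed, with an adjusted p of 0.9995 each in limma's fit on treatment alone.

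**Figure D3:**
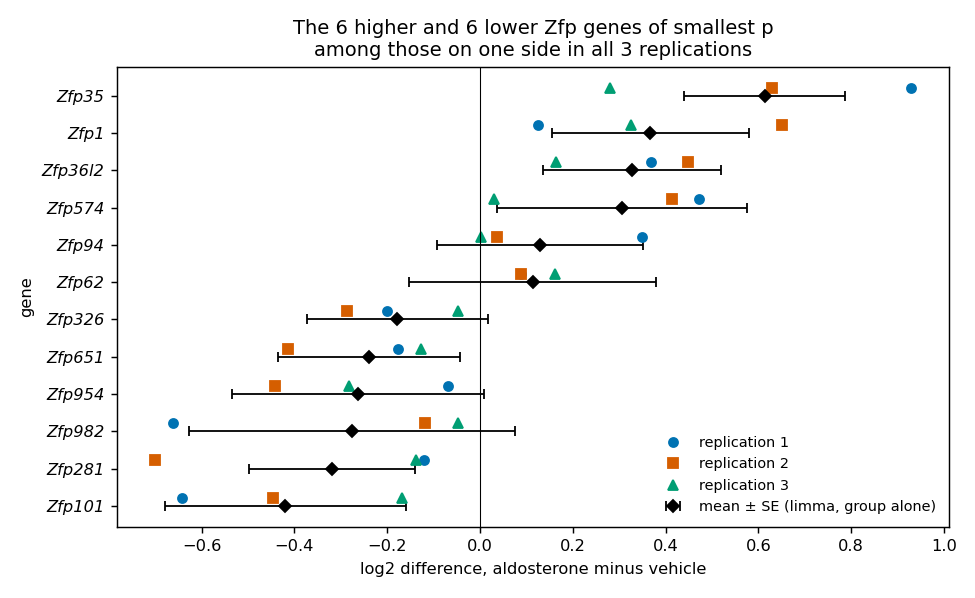
Log2 difference, aldosterone minus vehicle, of the 6 higher and 6 lower Zfp genes of smallest p among those on 1 side of 0 in all 3 replications. Coloured points are the replications and diamonds the mean with the standard error of limma's fit on treatment (n = 3 arrays per group); the mean of Zfp35 is 0.61, and all others lie between -0.42 and 0.37.

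Among the CCCH proteins, Zfp36l2 was the member with the larger difference. Its brightest probe set read 4159, 3716 and 2775 with aldosterone, against 3209.5, 2709 and 2472 with vehicle. In each replication the aldosterone array was the higher, while the groups overlapped. The log2 difference was 0.33 (standard error 0.191). With the replication as a block in limma's fit the standard error was 0.121, the unadjusted p 0.0245 and the adjusted p 0.998. A second tested probe set of the gene gave -0.01, at 2039 ± 623 with aldosterone and 2022 ± 496 with vehicle (SD, n = 3 each), and the third was too dim to test. Zfp36, which growth factors and glucocorticoids are known to induce in other cells, read 2087, 1327.5 and 904 with aldosterone, against 1895, 1139.6 and 1185 with vehicle. The log2 difference of Zfp36 was -0.01 (standard error 0.315), and its sign turned to 0.02 after quantile normalization or scaling to a common median. Zfp36l1 had 9180 ± 2152 with aldosterone and 9031 ± 4005 with vehicle (SD, n = 3 each), or 0.09 on the log2 scale (standard error 0.287).

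Of the C2H2 transcription factors listed by role, 4 of 6 probe sets passed the limit, with 2 above 0 and 2 below. Besides Zfp281, they were Zfp148 (ZBP-89), which binds GC-rich promoters, at 0.07, the cofactor Zfp467 at 0.15 and the corepressor Zfp703 at -0.01. RNA, spindle and ubiquitin factors gave 4 higher and 3 lower of 7 tested probe sets, with a median log2 difference of 0.02. Their brightest probe set was that of Zfp91, at 0.06 (standard error 0.123). Zfp106, an RNA-binding protein needed by motor neurons, had 0.20 and 0.06 in its tested probe sets. Zfp326, a link between RNA polymerase II and splicing, is given above, and Zfp207 and the ribosome assembly factor Zfp622 had -0.02 and -0.03. The signs of Zfp207, Zfp622, Zfp703 and Zfp644 (-0.02) turned when arrays were scaled to a common median. Zfp110 (NRIF), which binds the p75 neurotrophin receptor, read 641 ± 64.9 with aldosterone and 576 ± 23.4 with vehicle (SD, n = 3 each), or 0.14 on the log2 scale (standard error 0.248).

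The other 55 tested Zfp probe sets had log2 differences between -0.71 and 1.00, 32 higher and 23 lower, with unadjusted p of at least 0.141. Both ends are named after their values were seen. The brightest of 3 probe sets of Zfp787, with the suffix f, read 944, 1446 and 1230.5 with aldosterone, against 1568, 1070.4 and 78.2 with vehicle. Its vehicle value in replication 3 stood far below the other 5, and the other probe sets of Zfp787 both gave 0.09. A probe set of Zfp777 read 682, 422 and 157 with aldosterone, against 635, 661 and 595.5 with vehicle, and the brighter one gave 0.03.

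Between the replications, by contrast, some Zfp transcripts did differ. Limma's F test on the replication terms, fitted with treatment over all 7453 probe sets, called 6 of 81 Zfp probe sets (7.41%) at an adjusted p under 0.05, against 7.82% of all tested. They were Zfp148, Zfp36l1, Zfp871, Zfp322a, Zfp62 and Zfp94, and 5 of the 6 were lowest in replication 2. Replication 2 was also the most frequent lowest one over all 583 probe sets called, with 250 (42.9%). The count was 0 without the vehicle array of replication 1, 2 without the aldosterone array of replication 1 and 17 without the aldosterone array of replication 2. It was 0 without the intensity trend and 11 with arrays scaled to a common median.

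Zfp148 had 4860.4 with aldosterone and 5834 with vehicle in replication 1, 2398 and 2187 in replication 2, and 3684 and 2907 in replication 3. The arrays of the 3 replications did not overlap, with replication 1 high and replication 2 low, and the replication means spanned 2.30-fold (adjusted p = 0.0109 in limma's F test). Zfp36l1 had 11478 with aldosterone and 13539.9 with vehicle in replication 1, 7212 and 5885 in replication 2, and 8850.5 and 7669 in replication 3. Again the replications were apart, in the same order, over 1.91-fold (adjusted p = 0.0129). Zfp62 showed 3471 and 3259.8, 1989 and 1867, and 3232 and 2882 for aldosterone and vehicle in replications 1, 2 and 3. Replications 1 and 3 were close here and replication 2 was low, with a span of 1.73-fold (adjusted p = 0.0261).

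For Zfp871 and Zfp322a replication 3 was the highest. Zfp871 had 4197.5 with aldosterone and 4765 with vehicle in replication 1, 3192 and 2466.5 in replication 2, and 5674 and 6024.5 in replication 3, a span of 2.06-fold (adjusted p = 0.0134). Zfp322a had 3152.5 and 2787.5, 1795 and 1572, and 3305 and 4639 in the same order, a span of 2.29-fold (adjusted p = 0.0178). A probe set of Zfp94 went the other way, with 6948 with aldosterone and 6776 with vehicle in replication 2, against 4000.0 to 5112 on the other 4 arrays, a span of 1.51-fold (adjusted p = 0.0402). It carries the suffix r, and the other probe set of Zfp94 was too dim to test. Zfp53 and Zfp36 came next and did not pass, with adjusted p of 0.0702 and 0.0734. Zfp36 was highest in replication 1 on both arrays, and Zfp53 was lowest in replication 2 on both.

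**Figure D4:**
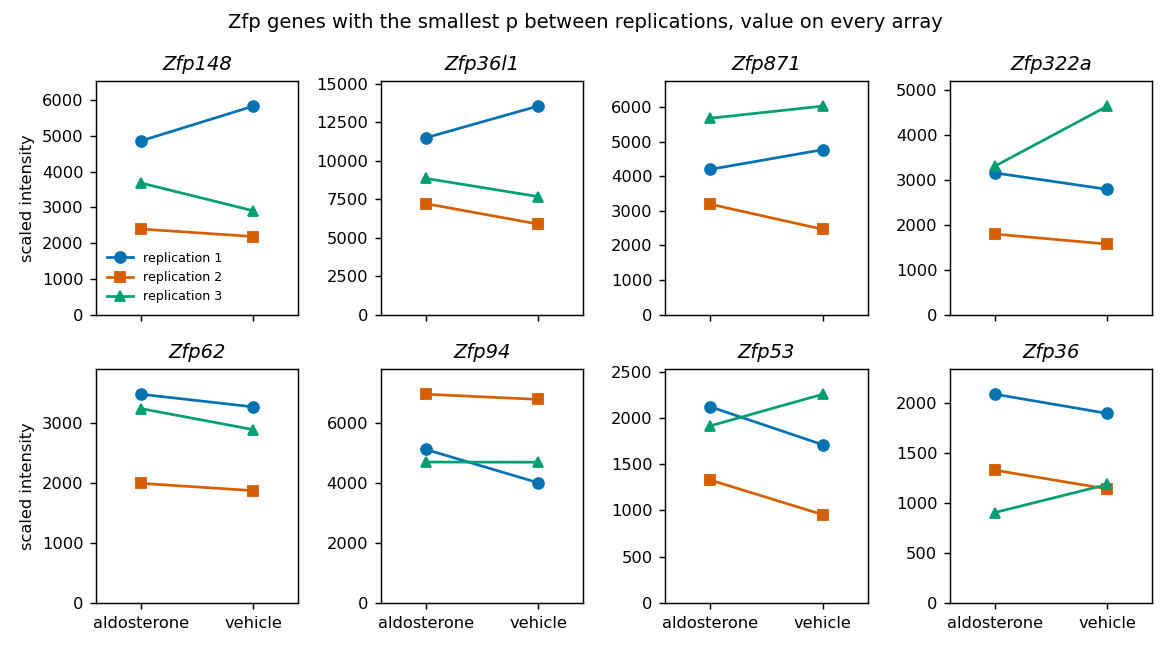
Scaled intensity (vertical axes, from 0) with aldosterone and with vehicle in each replication, for the 8 Zfp genes of smallest p in the F test of replications. Lines join the 2 arrays of a replication; replication 2 is lowest for Zfp148, Zfp36l1, Zfp871, Zfp322a, Zfp62 and Zfp53 and highest for Zfp94, and replication 1 is highest for Zfp36.

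Across the 81 Zfp probe sets, replication 2 was most often the lowest and replication 3 most often the highest. Averaged over both treatments, 38 of the 81 (46.9%) were lowest in replication 2 and 39 (48.1%) highest in replication 3, against 35.8% and 36.1% of the 7372 other tested probe sets. As deviations from each probe set's mean over the arrays, the Zfp medians were 0.06, -0.10 and 0.11 on the aldosterone arrays of replications 1, 2 and 3, against -0.01, -0.14 and 0.14 on the vehicle arrays. Those of the other probe sets lay between -0.003 and 0.03. Replication 2 was the low one and replication 3 the high one under both treatments. The gap between Zfp and other medians was -0.10 with aldosterone and -0.14 with vehicle in replication 2, and -0.05 and -0.12 after quantile normalization. In replication 3 it was 0.10 and 0.12, and 0.10 and 0.10 after quantile normalization. Members share their arrays, so these are descriptions of 6 arrays, with no test.

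**Figure D5:**
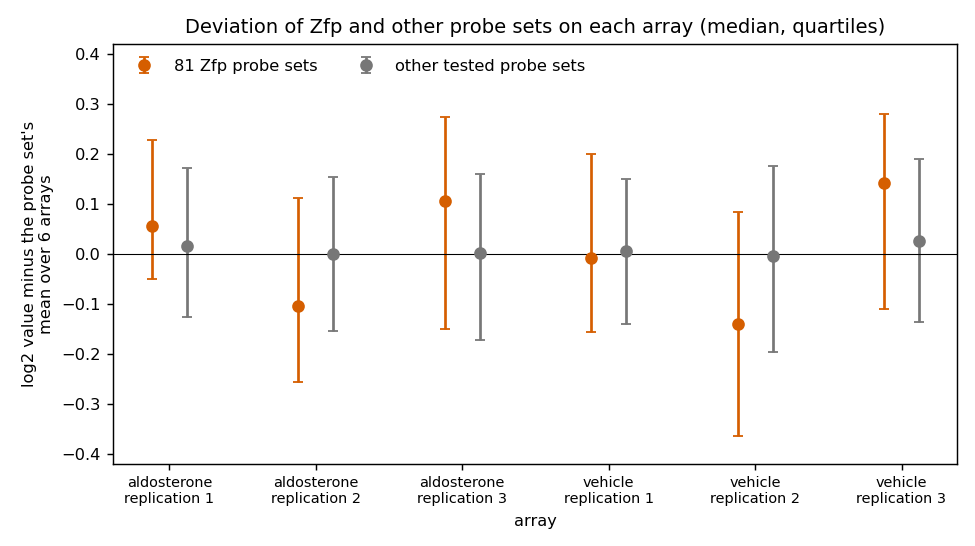
Median and quartiles (points and bars) of the log2 value minus the probe set's mean over the 6 arrays, for the 81 Zfp and the 7372 other tested probe sets on each array. The Zfp medians lie at -0.10 and -0.14 on the aldosterone and vehicle arrays of replication 2 and at 0.11 and 0.14 on those of replication 3.

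The spread of single probe sets was larger at lower levels, and its medians were higher for Zfp on both sides of the median level. The median within-group SD was 0.302 on the log2 scale for Zfp and 0.246 for the other tested probe sets, but Zfp probe sets were also dimmer, at median levels of 10.34 against 11.13. Below the median level of all tested probe sets it was 0.323 for 51 Zfp and 0.312 for other probe sets. Above it, it was 0.252 for 30 Zfp and 0.198 for others. All 6 calls between replications came from these 30 (20%, against 11.8% of others). Below the median level 0% of Zfp were called, against 3.81% of others. Over both sides the shares were 7.41% and 7.83%. The median log2 range of the replication means was 0.550 for Zfp and 0.437 for others below the median level, and 0.467 and 0.317 above it. Zfp probe sets were also the dimmer on each side, at median levels of 9.90 against 10.06 below and 11.63 against 12.20 above. The split therefore does not separate spread from level. Zfp213 was the steadiest, with a within-group SD of 0.0719. Besides Zfp787, Zfp276 and Zfp746 (PARIS, a repressor targeted by parkin) were the least steady at 0.802 and 0.754, each with 1 low vehicle array in replication 2 (183 and 242); these 3 and Zfp213 were named after their values were seen.

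RefSeq promoter windows, 250 bases before to 50 after a transcription start on GRCm38.p6, were matched by gene identifier for 73 of the 89 genes, with 94 windows. They are shown for Zfp36 and Zfp36l1, which bind AU-rich mRNAs and were highest in replication 1, for Zfp148, also highest there, and for Zfp871, highest in replication 3. Zfp148 and Zfp871 have further windows that are not shown. Capitals mark matches on either strand to AGAACA (the half-site of corticosteroid receptors), TGANTCA (AP-1), TGACGTCA (the cAMP response element), TATAAA or GGGCGG (the GC box). The AP-1 pattern is loose, since it takes any base at N.
Zfp36, chr7:28379179-28379478, minus strand: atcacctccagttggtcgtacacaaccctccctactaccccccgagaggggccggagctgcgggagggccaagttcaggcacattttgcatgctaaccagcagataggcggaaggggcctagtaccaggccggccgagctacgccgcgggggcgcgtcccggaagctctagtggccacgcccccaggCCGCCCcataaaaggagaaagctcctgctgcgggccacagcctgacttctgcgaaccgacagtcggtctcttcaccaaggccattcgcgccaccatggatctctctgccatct
Zfp36l1, chr12:80112964-80113263, minus strand: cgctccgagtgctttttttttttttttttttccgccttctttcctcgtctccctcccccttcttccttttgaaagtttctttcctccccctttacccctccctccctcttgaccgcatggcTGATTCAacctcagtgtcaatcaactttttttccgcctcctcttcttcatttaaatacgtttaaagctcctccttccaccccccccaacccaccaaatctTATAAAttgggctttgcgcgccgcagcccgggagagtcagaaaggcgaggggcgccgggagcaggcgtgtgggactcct
Zfp148, chr16:33381052-33381351, plus strand: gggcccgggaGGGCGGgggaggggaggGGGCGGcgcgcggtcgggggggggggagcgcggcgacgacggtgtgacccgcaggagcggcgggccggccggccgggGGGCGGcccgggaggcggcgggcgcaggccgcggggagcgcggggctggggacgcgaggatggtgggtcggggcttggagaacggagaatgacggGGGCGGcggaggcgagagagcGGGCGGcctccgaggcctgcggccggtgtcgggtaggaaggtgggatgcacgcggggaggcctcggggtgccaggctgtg
Zfp871, chr17:32788238-32788537, minus strand: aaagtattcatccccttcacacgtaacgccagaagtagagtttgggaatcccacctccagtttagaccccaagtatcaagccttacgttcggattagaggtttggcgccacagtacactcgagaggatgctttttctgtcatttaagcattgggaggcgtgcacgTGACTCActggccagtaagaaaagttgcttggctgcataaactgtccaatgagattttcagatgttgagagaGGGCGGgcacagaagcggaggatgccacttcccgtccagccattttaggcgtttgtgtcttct
The windows differ in their letters: that of Zfp36l1 holds an AP-1 match and a TATA box, that of Zfp36 a GC box, that of Zfp148 5 GC boxes, and that of Zfp871 an AP-1 match and a GC box. The window of Zfp148 that is not shown holds none of these matches, and that of Zfp871 a TATA box only. The full corticosteroid receptor element, AGAACA and its reverse complement 3 bases apart, was in 0 of the 94 Zfp windows and in 3 of all 32851 windows. Its half-site AGAACA was in 12.8% of Zfp windows and 19.0% of all, and TGACGTCA in 0% against 1.79%. GC boxes were in 53.2% against 35.7%, AP-1 matches in 4.26% against 7.81%, and TATA boxes in 8.51% against 13.6%. The 9 windows of the 6 genes that differed between replications held a GC box in 5, an AP-1 match in 2, a TATA box in 2 and AGAACA or TGACGTCA in 0. Windows of Zfp genes had a median GC content of 58.3%, against 52.7% for all.

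Many of the genes lie side by side. By RefSeq gene order on GRCm38.p6, 44 of the 89 (49.4%) have another numbered Zfp gene as next protein-coding neighbour, against 3.06% of all protein-coding genes. The share was 47.8% among the 69 genes tested and 55% among the 20 that were too dim. Zfp51, Zfp53 and Zfp54 are examples with a numbered Zfp neighbour.

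Partners of the Zfp proteins were also followed. These lists were chosen with earlier results of these data known, so their shares are descriptions and not tests. Of 18 probe sets for corepressors of KRAB proteins 14 were tested, 10 higher and 4 lower by sign after aldosterone with 0 called, and 1, the heterochromatin protein gene Cbx5, differed between replications (7.14%, against 7.82% of all tested). Of 30 tested probe sets for mRNA deadenylation and decay factors, 16 were higher and 14 lower with 0 called, and 3 (10%), for Ddx6 and Xrn1, differed between replications with replication 1 highest. AU-rich mRNAs bound by Zfp36 proteins gave 16 higher and 7 lower of 23 with 0 called (median 0.06), and 10 of 23 (43.5%) differed between replications, 8 of them highest in replication 1. Over all tested probe sets 7.82% differed, and of those 583 replication 1 was highest in 227 (38.9%). Without the genes that are also on the immediate early list, 6 of 18 (33.3%) differed and 4 were highest in replication 1, among them the chemokine genes Cxcl1, Cxcl2 and Ccl2. Of 31 tested probe sets for immediate early genes, 21 (67.7%) differed and all 21 were highest in replication 1. Whether the level of Zfp36l1 bears on these mRNAs was not tested. Other families with zinc finger names outside the numbering (Zbtb, Zscan, Zfand, Zdhhc and others) had 34 of 49 probe sets tested, 20 higher and 14 lower with a median of 0.02, and 1 of 34 (2.94%) differed between replications.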

How the data were processed

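RNA of mIMCD3 cells was measured on 6 one-colour oligonucleotide arrays, 3 with aldosterone and 3 with vehicle for 1 h, per the labels. The deposited values are linear intensities, with 1 value for a probe set on each array. The scanning and summarising software is not stated in the labels used here. The 2% trimmed means of 5 arrays lay between 2488 and 2493, and that of the aldosterone array of replication 3 was 86.5, so each array was scaled to 2090. After scaling, the values of that array have steps of 2.42, against 0.0838 to 0.0840 elsewhere. Values were taken as log2(intensity + 53.0), the 10th percentile of scaled values, so folds of dim probe sets are understated. Probe sets below the 40th percentile of mean log2 value (8.87) were left out, which kept 7453 of 12422.

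Symbols came from the array's annotation table; 10833 probe sets had 1 symbol, 396 several and 1193 none, and 0 symbols changed through Entrez identifiers in RefSeq genes of GRCm38.p6. Limma 3.58.1 in R 4.3.3 (lmFit, eBayes with an intensity trend, two-sided, Benjamini-Hochberg over 7453 probe sets, threshold 0.05) compared treatments on group alone and, by an F test with treatment in the model, the replications. Both fits were run on simulated arrays with large planted changes, less noise than in these data and, for the treatment fit, no replication effect. That run does not show their power for changes as small as those seen here. The replication number was taken to pair arrays, because the sample descriptions say that the experiment was repeated to a total of 3 times and because same-numbered arrays deviated together (correlations of 0.377, 0.387 and 0.471). As a block it gave 3 Zfp probe sets with an unadjusted p under 0.05 in place of 1, and 250 of all in place of 72. Alternatives were other scaling, pseudocounts, filters, no trend, the block and leaving out arrays or replications. The 29 genes described by name were the members of role lists, the 6 higher and 6 lower of smallest p among those on one side of 0 in all 3 replications, the 8 of smallest p between replications and the 5 brightest, by the probe set of smaller p where a gene has several; others are marked. Members and lists were chosen with earlier results of these data known. The number of arrays limits the precision.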

Additional observations from a re-analysis of the deposited data

How the results depend on the processing

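No Zfp probe set was called after aldosterone under any alternative run, and the smallest adjusted p of a named one over all of them was 0.998. The count over all probe sets, 0, was 0 in all alternatives but the one without vehicle replicate 2, where it was 1 (0 to 1 on leaving out arrays or replications). The replicate block left both counts at 0 and changed no call. The median log2 difference of Zfp probe sets, 0.06, was -0.0167 with no filter on level and -0.0432 to 0.102 on leaving out arrays or replications. Between replications, 583 probe sets were called, 2 without the intensity trend and 44 to 1292 on leaving out an array; for Zfp the 6 became 0 without the trend, 11 with arrays scaled to a common median, and 0 to 17 on leaving out an array. The causes were not tested. Of 26 named Zfp probe sets, 12 kept the side of 0 of their log2 difference in every alternative and 14 did not. Scaling to a common median gave 7.15e-05 for Zfp622, 0.00797 for Zfp207, 0.0149 for Zfp703, 0.0179 for Zfp36 and 0.00872 for Zfp644, and quantile normalization 0.0191 for Zfp36. Leaving out arrays or replications gave -0.0430 to 0.34 for Zfp467, -0.0104 to 0.17 for Zfp91, -0.18 to 0.42 for Zfp36l1, -0.23 to 0.47 for Zfp148, -0.15 to 0.0795 for Zfp622, -0.16 to 0.13 for Zfp207, -0.14 to 0.12 for Zfp703, -0.31 to 0.27 for Zfp36, -0.0375 to 0.34 for Zfp94, -0.12 to 0.36 for Zfp62, -0.33 to 0.30 for Zfp871, -0.43 to 0.33 for Zfp322a, -0.16 to 0.44 for Zfp53 and -0.0874 to 0.0788 for Zfp644.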
